A study of Mus musculus with 1 sample.

Results

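The Na+/K+-ATPase, or sodium pump, was examined through 7 genes: the catalytic subunit gene Atp1a4, the beta subunit genes Atp1b1, Atp1b2 and Atp1b3, and the FXYD regulator genes Fxyd1, Fxyd5 and Fxyd6. They were picked by gene symbol, with earlier results of these data known, and each matched 1 of the 23282 rows of the expression table. The data were 1 RNA-seq library of mixed glia grown from the ventral midbrain (VM) of ICR(CD-1) outbred mice at postnatal day 5, titled as the control, which received the vehicle DMSO. The study asked how blocking the kinase SGK1 with the compound GSK650394 alters such glia, and libraries of inhibitor-treated cells were not analysed here. The cells carried no stated transgene or deletion, they were passaged on a coated surface, and the sources do not say how many pups contributed or whether the control culture met the toxins named for the treatments.

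The pump moves sodium out of the cell and potassium in at the cost of ATP. A catalytic alpha subunit carries the ion and ATP sites. A beta subunit is needed for folding and delivery to the membrane, and a small single-pass FXYD protein may join and adjust the affinity for ions. In brain, beta2 (Atp1b2, also called adhesion molecule on glia) is known as the astrocyte form of the beta subunit. Beta1 (Atp1b1) is best known from neurons, although it is found in many cells, and beta3 (Atp1b3) is widely expressed. In astrocytes the gradient that the pump builds drives glutamate uptake and helps clear extracellular potassium. SGK1 is known from epithelia as a kinase that raises sodium transport, the pump included.

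In this library Atp1b2, the beta subunit known from astrocytes, was the highest of the beta subunit genes. Atp1b1, best known from neurons but found in many cells, was lower. Atp1b2 had a normalised read count of 15285, Atp1b3 of 4406 and Atp1b1 of 1479. Among the FXYD genes Fxyd5 stood at 13142 and Fxyd1 at 1808, whereas Fxyd6 was at 19. Atp1a4, the catalytic subunit known from sperm, was at 10. There was no replicate, so none of these values carries an error between cultures, and no difference below was tested. The number of reads behind the values is unknown, because the authors normalised them, and no counting interval is given. In a bulk sample of mixed cells, fewer cells of a type and less RNA per cell cannot be told apart.

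All 7 genes reached the value of 10 that was used as the minimum for detection, against 67.2% of all rows. Atp1a4 sat on that minimum, and 5 of the 7 reached 100. The 7 genes together held 0.131% of the sum of all values, which was 27569507. Their median value was 1808, beside 469 over the 15648 detected genes. Since 5 genes lay above the second of these medians and 2 far below it, the set did not share a common level.

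Long transcripts collect more reads than short ones, so levels of different genes were compared as normalised read counts per kilobase (kb) of exon, with the length taken as the union of annotated exons. On this scale the order was Atp1b2 (3742 per kb), Fxyd5 (3135), Atp1b3 (1844), Fxyd1 (827), Atp1b1 (480), Fxyd6 (4.63) and Atp1a4 (2.73). The median detected gene had 102 per kb. The steps between neighbours ran from 1.19 times (Atp1b2 over Fxyd5) to 2.23 times (Atp1b3 over Fxyd1), apart from a step of 104 times between Atp1b1 and Fxyd6. Without a replicate, neighbours in this order cannot be separated by their spread. The order also turned on the length used. Per kb of the longest annotated transcript or of the longest coding sequence, Fxyd5 came before Atp1b2 and Fxyd1 before Atp1b3, while the last 3 places stayed the same.

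**Figure D1:**
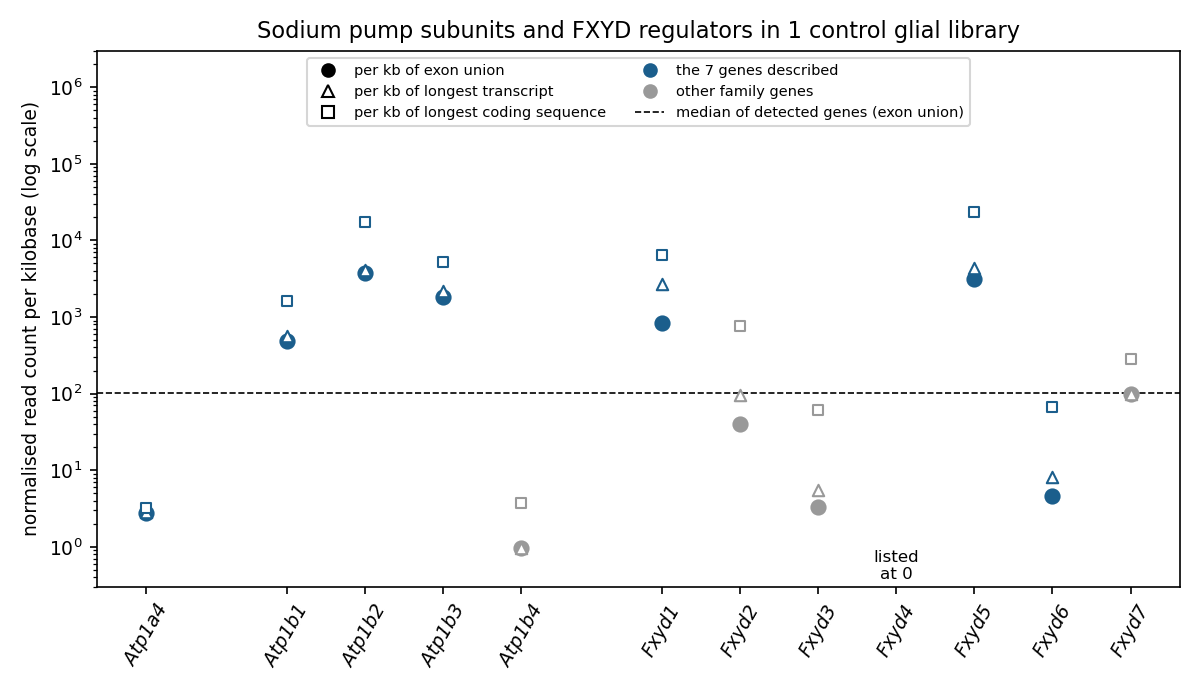
Level of Atp1a4 and of each beta and FXYD gene in the control library, as normalised read count per kb on a log axis. Filled circles use the exon union, open triangles the longest transcript and open squares the longest coding sequence. Blue marks the 7 genes described and grey the other family genes. The dashed line is the median of detected genes, 102 per kb of exon union. Atp1b2 and Fxyd5 lie highest among the blue points, and Fxyd6 and Atp1a4 lie below the line under each length.

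The beta subunits were taken first, as the place where the forms best known from glia and from neurons can be set beside each other. Atp1b2 (chr11:69599736-69605942, minus strand, GRCm38) ranked 211th of all rows and exceeded 98.7% of detected genes. Besides its role in the pump it acts as a cell adhesion molecule between glia and neurons. Its exons overlapped no other annotated gene. Per kb it held 61.7% of the beta subunit sum, Atp1b3 held 30.4% and Atp1b1 held 7.91%.

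Atp1b2 was 7.79 times the level of Atp1b1 per kb, and the ratio lay between 7.11 and 10.8 under the other lengths and without division by length. It was 2.03 times the level of Atp1b3, which became 3.33 times per kb of coding sequence. Atp1b3 (chr9:96332655-96364442, minus strand) exceeded 93.1% of detected genes and was 3.84 times Atp1b1. It encodes the beta subunit of many blood and epithelial cells as well as of glia. The order beta2, beta3, beta1 therefore held on every scale used.

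Atp1b1 (chr1:164437109-164458355, minus strand) was the lowest detected beta subunit gene, yet it was well expressed, above 77.1% of detected genes. Of its exon bases, 575 (18.7%) also belong to Nme7 on the opposite strand, which had a value of 868. The strand setting of the counting is not given in the sources used here, so reads of that stretch could belong to either gene. The remaining beta gene, Atp1b4, whose product in muscle is known to have lost its pump role in placental mammals, had a value of 4 and was not detected.

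Atp1a4 (chr1:172223513-172258414, minus strand) is the only catalytic subunit gene described here, and it was barely present. At 2.73 per kb it lay above 1.75% of detected genes. Its exons overlapped no other annotated gene, but how multi-mapped reads were treated is not given in the sources used here, and reads shared within the family could enter so low a value. Shared stretches were measured only within the beta and FXYD families, so they do not bear on Atp1a4. Among the 4 beta genes the longest exact stretch shared by transcripts of different genes was 19 bases. Among the 7 FXYD genes it was 38 bases, between Fxyd2 and Fxyd5.

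Among detected genes, the FXYD regulators differed from one another far more than the beta subunits did. This contrast rests on the detection minimum, which leaves out Atp1b4 at 0.952 per kb and Fxyd4 at 0. At minima of 1 or 3, Atp1b4 counts as detected and the contrast reverses. The beta genes then run from 3742 to 0.952 per kb, and the FXYD genes from 3135 to 3.30. Fxyd5 (chr7:31032722-31042481, minus strand) encodes dysadherin, a glycoprotein that modulates the pump and lowers cell adhesion when abundant. It ranked 261st of all rows and held 76.3% of the FXYD sum per kb. A single annotated microRNA gene, Mir7050, lies on 60 of its exon bases. Fxyd1 (chr7:31051678-31057199, minus strand) encodes phospholemman, a phosphorylated regulator known from heart, muscle and brain, and held 20.1% of the FXYD sum. It exceeded 81.3% of detected genes by value and 89.0% per kb.

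Fxyd5 was 3.79 times Fxyd1 per kb. This ratio changed with the length, to 1.62 with the longest transcript and to 7.27 without division. Fxyd1 has 17 annotated transcripts, with an exon union of 2186 bases but a longest transcript of 668 bases, so the union is long against any transcript that is annotated for it.

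Fxyd6 (chr9:45370185-45396159, plus strand) encodes phosphohippolin, known from hippocampal and other neurons. Its value of 19 exceeded 5.60% of detected genes. Fxyd5 was 678 times and Fxyd1 179 times its level per kb, and the first ratio was at its lowest, 351, per kb of coding sequence. The second ran from 95.2 without division by length to 336 per kb of the longest transcript. Of the other FXYD genes, Fxyd2, the kidney gamma subunit, had 162, and Fxyd7, known as a brain form, had 68. Fxyd3, known from epithelia and tumours, had 16, and Fxyd4, known from kidney collecting duct and colon, was listed at 0. The values of Fxyd3 are hard to assign, since 42.5% of its exon bases also belong to Lgi4 on the opposite strand.

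**Figure D2:**
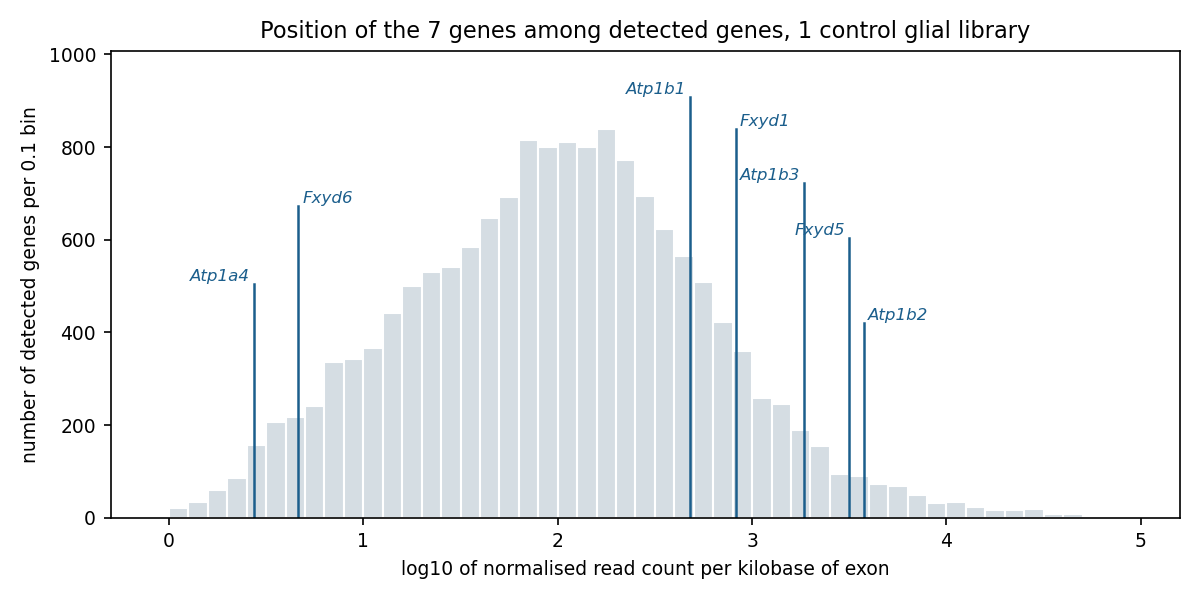
Histogram of log10 normalised read count per kb of exon over the detected genes that could be matched to the annotation, in bins of 0.1, with the 7 genes as blue lines whose heights only carry the labels. Fxyd6 and Atp1a4 fall in the low tail (4.63 and 2.73 per kb). The other 5 lie above the median of 102 per kb, from Atp1b1 at 480 to Atp1b2 at 3742 per kb.

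Of the 7 FXYD genes, 6 lie in 2 groups of neighbours, and Fxyd4 lies apart on chromosome 6. Fxyd5, Fxyd7, Fxyd1 and Fxyd3 follow one another on the minus strand of chromosome 7 within 43983 bases. Fxyd5 and Fxyd7 are 31 bases apart, Fxyd7 and Fxyd1 are 210 bases apart, and 10972 bases separate Fxyd1 from Fxyd3. Along this row the levels went from 3135 to 98.1, 827 and 3.30 per kb. Fxyd7, between the pair of well-expressed members, was thus lower than both. Fxyd5 was 31.9 times the level of Fxyd7 and 950 times that of Fxyd3. The ratio to Fxyd7 was 83.6 and that to Fxyd3 391 per kb of coding sequence, and without division by length the first was 193. On chromosome 9, Fxyd6 and Fxyd2 lie 3509 bases apart on the plus strand, and Fxyd6 was 0.114 of the level of Fxyd2.

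**Figure D3:**
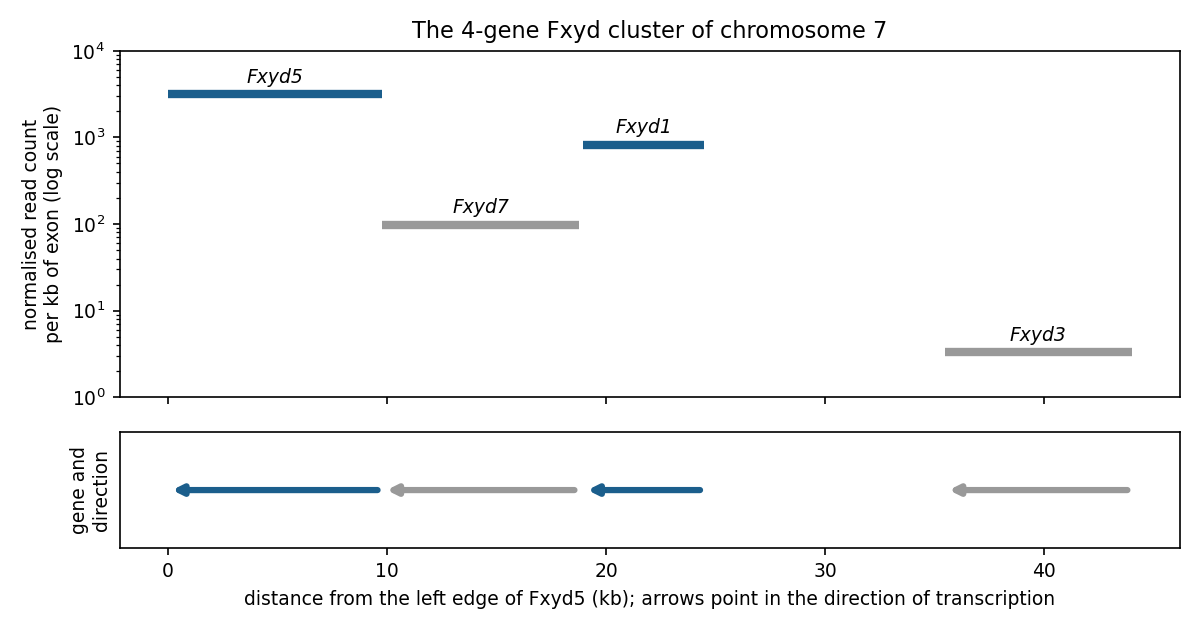
The Fxyd genes of chromosome 7 by distance from the left edge of Fxyd5 in kb (horizontal axis), with the normalised read count per kb of exon on a log axis above and the direction of transcription below. Bars span each gene. Blue marks Fxyd5 and Fxyd1 (3135 and 827 per kb) and grey their neighbours Fxyd7 and Fxyd3 (98.1 and 3.30 per kb).

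Upstream sequence was read for the members from the RefSeq promoter windows of GRCm38.p6, which cover 6 of the 7 genes. Atp1b2 has no entry. The 250 bases before the annotated start are shown for 2 well-expressed members, Atp1b1 and Fxyd1, and for the 2 low ones, Fxyd6 and Atp1a4. The windows of these 4 hold no annotated exon bases, and each of the 4 genes has a single window. The Fxyd1 window lies inside the annotated span of Fxyd1, so it is not upstream of the whole gene. They were chosen after the values were seen. Capitals mark the GC box, GGGCGG or its reverse complement CCGCCC, the motif bound by Sp1. The windows are chr1:164458356-164458605 (minus strand) for Atp1b1, chr7:31054854-31055103 (minus) for Fxyd1, chr9:45369935-45370184 (plus) for Fxyd6 and chr1:172258425-172258674 (minus) for Atp1a4.
Atp1b1: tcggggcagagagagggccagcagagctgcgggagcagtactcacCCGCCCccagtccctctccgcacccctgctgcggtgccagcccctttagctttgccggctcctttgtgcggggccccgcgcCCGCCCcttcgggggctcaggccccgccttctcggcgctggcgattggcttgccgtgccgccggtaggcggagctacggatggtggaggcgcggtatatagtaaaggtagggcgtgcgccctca
Fxyd1: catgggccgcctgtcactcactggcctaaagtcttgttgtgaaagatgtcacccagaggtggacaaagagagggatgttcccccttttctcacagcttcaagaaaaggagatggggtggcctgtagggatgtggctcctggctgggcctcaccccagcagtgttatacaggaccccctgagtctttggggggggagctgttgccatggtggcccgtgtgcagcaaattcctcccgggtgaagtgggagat
Fxyd6: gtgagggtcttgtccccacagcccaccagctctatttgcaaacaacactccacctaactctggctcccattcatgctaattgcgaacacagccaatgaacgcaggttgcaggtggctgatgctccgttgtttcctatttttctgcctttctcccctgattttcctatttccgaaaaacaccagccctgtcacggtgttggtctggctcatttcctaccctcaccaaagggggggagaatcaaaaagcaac
Atp1a4: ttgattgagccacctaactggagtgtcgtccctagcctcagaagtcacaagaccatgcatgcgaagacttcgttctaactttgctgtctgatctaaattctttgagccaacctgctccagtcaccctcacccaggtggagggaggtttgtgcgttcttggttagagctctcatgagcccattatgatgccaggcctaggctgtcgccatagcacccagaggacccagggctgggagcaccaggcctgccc

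The Atp1b1 window held 2 GC boxes and 24 CpG dinucleotides, more than 88.0% of the 32851 windows, whose median was 6. Atp1b3 has 2 windows, with 35 and 24 CpG dinucleotides and with 0 and 5 GC boxes, the first of them inside the annotated gene. Fxyd1 had 3 CpG dinucleotides, as did Fxyd5, of whose 250 bases 219 lie in annotated exons, and Fxyd6 and Atp1a4 had 5 each, with no GC box in any of these 4 genes. CpG-rich and CpG-poor windows thus both occurred among the 5 well-expressed members. Atp1b1 and Fxyd1 are examples, the second from a window inside its gene. Of all windows, 32.7% held a GC box, 12.4% the letters TATAAA and 16.1% TGTTCT, a core site of the glucocorticoid response element. Neither of the last motifs, searched on both strands with no overlap to the GC box, was in the windows of the members. A match or its absence describes these letters only.

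Because the cell types of the culture bear on glial and neuronal subunits, marker genes were read beside them. Of 10 astrocyte markers 9 were detected (median 408 per kb), against 67.2% of all rows. Gfap (17222) and Aldoc (5805) were highest, and Gjb6 was lowest at 4. Among neuron markers 8 of 12 were detected, beside the same 67.2% of all rows, with a median of 8.05 per kb. Stmn2 at 3802 and Map2 at 868 were highest, and Slc17a6, which marks glutamatergic neurons, was listed at 0. The rest were Nefm at 508, Gad2 at 173, Snap25 at 86, Nefl at 55, Rbfox3 at 20, Gad1 at 13, Syt1 at 6, Nefh at 4 and Th at 3. Atp1b1 at 480 per kb was therefore above 11 of the 12 neuron markers, and Fxyd6 at 4.63 per kb was below their median.

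Markers of other cell types were also read, against 67.2% of all rows detected. In bulk RNA a detected marker does not by itself show that its cell type was present. All 7 microglia markers were detected (median 2377 per kb), with C1qa at 32619, Csf1r at 31413 and Tmem119 lowest at 984. All 8 mesenchymal markers were too (median 743), from Fn1 at 95749 and Acta2 at 26499 to Lum at 455. The 7 oligodendrocyte lineage markers had a median of 221 per kb, with Mbp at 10966, Cnp at 3937 and Sox10 at 48. All 6 ependymal markers were detected (median 693 per kb), from Cfap126 at 3173 and Foxj1 at 1353 to Tmem212 at 14.

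Choroid plexus markers had a median of 12.7 per kb with 3 of 6 detected, against 67.2% of all rows. Folr1 at 229 and Otx2 at 100 were highest, Ttr was at 2 and Kl was listed at 0. Of the 6 endothelial markers 4 were detected (median 7.76 per kb), beside the same 67.2%. Flt1 was at 2427, Kdr at 119, and Tek was listed at 0. The share of each cell type in the levels of the 7 pump genes was not tested.

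**Figure D4:**
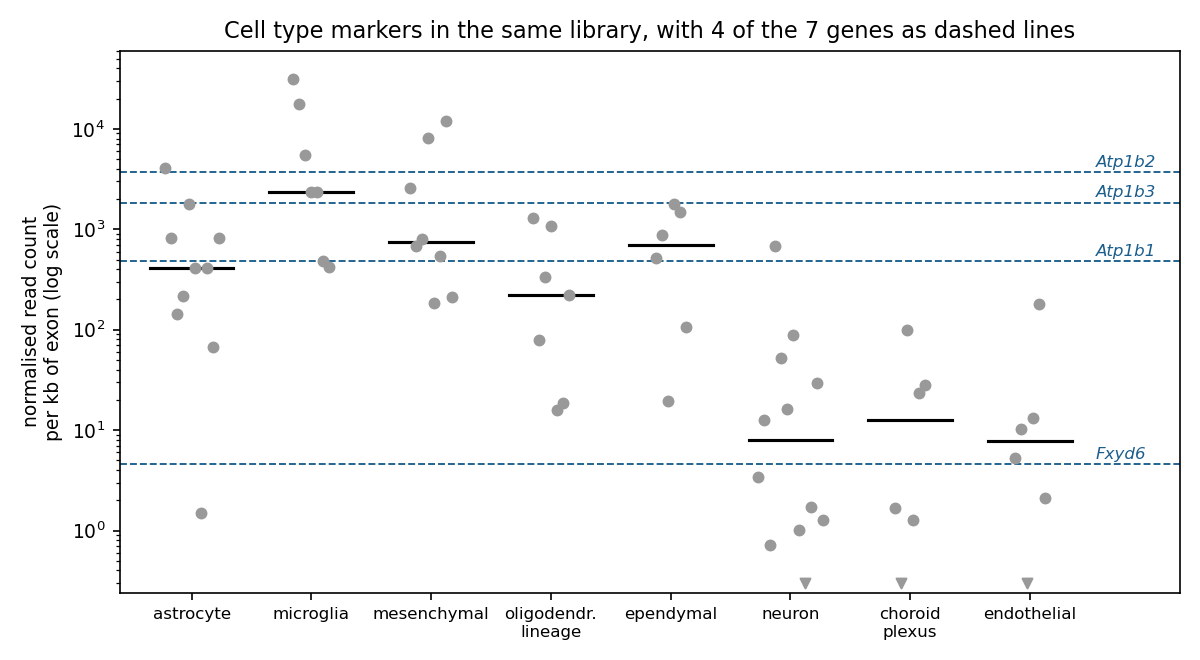
Normalised read count per kb of exon (log axis) of the markers of 8 cell types, 1 grey point per gene with the list median as a black bar. Triangles at the lower edge are genes listed at 0. Dashed blue lines are Atp1b2 (3742), Atp1b3 (1844), Atp1b1 (480) and Fxyd6 (4.63 per kb). The Atp1b1 line lies above 11 of the 12 neuron markers.

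Genes of the pump families, and others that are related to the pump or work with it, were read from fixed lists. In these lists 44 of 49 genes were detected, the 7 members included, against 67.2% of all rows. All 4 NKAIN genes, whose small membrane proteins bind beta1, were detected, with Nkain1 at 739, Nkain4 at 325, Nkain2 at 106 and Nkain3 at 30. Of the proteins known to join beta1 at astrocyte junctions, Mlc1 was at 3500, Hepacam at 2035, Clcn2 at 341 and Trpv4 at 107. The related proton and potassium pumps, Atp4a, Atp4b and Atp12a, were listed at 0.

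The carriers that use the sodium gradient were all detected (12 of 12), against 67.2% of all rows. Their levels (median 60.9 per kb) were below Atp1b1, Atp1b2 and Atp1b3. Bicarbonate cotransporter Slc4a4 had 2058, and the glutamate transporters Slc1a2 and Slc1a3 had 1866 and 1850. The GABA transporter Slc6a11 was lowest at 19. The potassium channels Kcnj10 (2002) and Kcnj16 (943) and the water channel Aqp4 (5049), which share the astrocyte endfoot with the pump, were detected, with a median of 370 per kb.

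All 7 calcium pump genes were detected (median 101 per kb), against 67.2% of all rows. Atp2a2 at 9860, Atp2b1 at 4262 and Atp2b4 at 1439 were highest, with the neuronal Atp2b2 lowest at 14. Sgk1 itself was at 6105, which is 1245 per kb and lies between Atp1b3 and Fxyd1. Wnk1, a kinase of ion transport that SGK1 can phosphorylate, was at 9119. The ubiquitin ligases Nedd4 and Nedd4l, the second of which is a target of SGK1, were at 8036 and 864.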

How the data were processed

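Mixed VM glia were described with 1 control library, made from total RNA by the SMARTER mRNA-Seq kit. According to the study's methods, reads were trimmed at base quality 20, mapped to GRCm38/mm10 with STAR and counted with HTSeq-count on exons of NCBI RefSeq Release 105 genes. The submitters' processing notes name TopHat and edgeR instead, and this difference could not be resolved. The deposited values are whole numbers that the authors described as normalised read counts per gene, and they were treated here as a score rather than as raw counts. The methods also mention FPKM values, a measure scaled by exon length and depth. The deposited values were not taken for these, since the authors' legends call them read counts and they sum to 27569507, but if they had been scaled by length, dividing by length here would repeat that step. The normalisation, the strand setting and the treatment of multi-mapped reads are not given in the sources used here, so depth and counting error are unknown.

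Each value was divided by exon length from GENCODE release M21 (GRCm38), which is not the annotation the authors counted on. Of 23282 rows, 22797 (97.9%) had a single match by symbol or RefSeq synonym. Percentages of detected genes count those strictly below. Shared stretches are the longest exact matches between annotated transcripts. Promoter sequences came from RefSeq (GRCm38.p6). Alternatives were other detection minima, other lengths and other sums. With 1 library no test between groups was possible. The 7 genes and all lists were chosen with earlier results of these data known. Every beta, FXYD and NKAIN gene was named. Some genes that the lists held are not reported here, and medians and counts leave them out. In other pathway lists the 3 highest, the lowest and genes at 0 were named, and in marker lists the 2 highest and the lowest. The remaining neuron markers and the overlapping genes Nme7, Mir7050 and Lgi4 were added after values were seen. So were Ttr and the markers listed at 0 beside the lowest. Helper functions were tested on simulated data. Python 3.11.15, numpy 2.4.6 and matplotlib 3.10.9 were used.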

Additional observations from a re-analysis of the deposited data

How the results depend on the processing

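The counts detected changed little at minima of 1 and 3 and fell at 100. All 7 genes were detected at minima of 1 and 3 and 5 of them at 100, and of the 49 pathway genes 45, 45 and 34 were. The share of the sum was 0.134% without Rn45s and 0.151% without the 10 highest genes. Percentages of detected genes below also moved with the minimum, for Fxyd6 from 5.60% to 18.9% at a minimum of 1. The contrast in range between the FXYD and beta genes reversed at minima of 1 and 3. The order of the 7 genes depended on the length used. Both the longest transcript and the longest coding sequence left 3 of the 7 genes in their place in the order.

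In the sequence longest transcript, longest coding sequence and no division by length, Atp1b2 over Atp1b1 was 7.11, 10.8 and 10.3, Atp1b2 over Atp1b3 was 1.84, 3.33 and 3.47, Fxyd5 over Fxyd1 was 1.62, 3.61 and 7.27, and Fxyd5 over Fxyd6 was 545, 351 and 692. The share of Atp1b2 in the beta sum was 59.4%, 71.8% and 72.2%, and that of Fxyd5 in the FXYD sum was 60.1%, 75.4% and 86.4%. None of these 4 ratios crossed 1. The ratios of Atp1b3 to Atp1b1 and of Fxyd1 to Fxyd6, those to genes outside the members and the pathway counts were added after seeing the data. The shifts follow from the lengths themselves. The lack of a replicate and the unknown depth limit all values to this library.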
